A study of Mus musculus with 12 samples.

Results

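The 32 genes described here encode enzymes that build purine and pyrimidine nucleotides, the pentose phosphate enzymes that supply their ribose, and a pair of purine salvage enzymes. They were chosen by gene name, in 4 branches: 12 genes of purine synthesis, 11 of pyrimidine synthesis, 7 of the pentose phosphate pathway and 2 of purine salvage. The names matched 33 of the 49315 gene rows in the count files. A second row carried the name Ppat, but the GENCODE annotation gives its Ensembl ID the name Coasy, so it was left out and 32 genes remained. All 32 passed the filter on low counts, as did 16844 genes in all.

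RNA was sequenced from wild-type MIN6 cells, a mouse insulinoma line. MIN6 cells secrete insulin and stand in for pancreatic β-cells, but they are tumour cells that divide. The 12 libraries form 4 groups of 3. Rap cells received amino acids and "Rap" at once for 3 h, re-added cells received amino acids alone for 3 h, starved cells spent 16 h without amino acids, and control cells are labelled ctrl. The labels do not spell out Rap or its dose, and they do not give the time without amino acids before re-addition. They do not say that replicates came from separate cultures either, and the p-values therefore reflect the spread of these libraries alone, possibly a technical one. Whether the starved cells also lacked glutamine, a nitrogen donor of both nucleotide pathways, is not stated.

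Purine nucleotides are assembled stepwise on phosphoribosyl pyrophosphate (PRPP), the activated ribose that PRPP synthetases make, and the first purine product, IMP, is turned into AMP or GMP. Pyrimidines are made the other way round, with the ring formed first and the ribose joined afterwards, and UMP is then phosphorylated, aminated to CTP or converted to thymidylate. The oxidative arm of the pentose phosphate pathway makes NADPH and ribose phosphate from glucose 6-phosphate, and its non-oxidative arm exchanges sugars with glycolysis. In other mammalian cells the kinase complex mTORC1, named in the series title, is known to raise nucleotide synthesis through CAD, ATF4 and other targets.

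The counted reads per library ranged from 18555958 to 25631056. Values are CPM, counts scaled to a common library total with TMM factors, and 5 CPM stands for 92.8 to 128.2 reads. Markers of the labelled cell type were present: all 14 β-cell markers stood at 1 CPM or more in every library. Markers of other cell types were present too. The 30 fibroblast, leukocyte and endothelium markers summed to 126 to 133 CPM in Rap libraries, to 818, 133 and 129 CPM in re-added libraries, to 1990, 139 and 948 CPM in starved libraries and to 2031 to 2423 CPM in control libraries. Of these markers Lum was at 0 in re-added replicate 2 and Rap replicates 1 and 2, Emcn was at 0 in re-added replicate 3, and no marker was at 0 in a starved or control library. The 8 lung epithelium markers summed to 45.2 to 55.3 CPM in Rap libraries and to 1587 to 1902 CPM in control libraries. Each comparison except re-added against control was therefore also made with libraries of like marker sum only. This used starved replicate 1 against the 3 control libraries, re-added replicates 2 and 3 against starved replicate 2, the Rap libraries against re-added replicates 2 and 3, and the Rap libraries against starved replicate 2. The spread of a lone starved library is assumed equal to that of the other groups. In bulk RNA, fewer cells of a type and less RNA per cell cannot be told apart.

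The first comparison asked how 16 h without amino acids changed these genes. Genes of the steps to IMP (Prps2, Ppat, Pfas, Paics and Atic) and Cad rose, while 5 of 7 pentose phosphate genes, the kinase genes Cmpk1, Nme1, Nme2 and Dtymk, and Tyms fell. The steepest fall was that of Taldo1 (log2 fold change -1.04) and the steepest rise that of Cad (0.55). In edgeR's quasi-likelihood test (adjusted p under 0.05), 9 of the 32 genes were higher in starved than in control cells, which is 28.1% of them beside 24.3% of all genes tested. Another 13 were lower, which is 40.6% beside 14.6% of all genes, and 10 did not pass. The median log2 fold change was -0.21 over the 32 genes and 0.01 over all genes tested. By branch, 6 purine genes rose and 1 fell, 2 pyrimidine genes rose and 6 fell, 1 pentose phosphate gene rose and 5 fell, and 1 salvage gene fell. Upper-quartile scaling moved the median of all genes to -0.13 and that of the 32 genes to -0.36, and gave 44.6% of all calls as higher, against 62.5% with TMM. With the lone starved library of like marker sum the 9 higher genes gave 0.10 to 0.37 on the log2 scale. The median there was -0.33 over the 32 genes and -0.02 over all genes tested. Without starved replicate 2, 5 of the 32 genes were higher, beside 2813 of all genes tested (4101 with all 12 libraries).

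On re-addition of amino acids most of the genes that changed were higher. Of the 32 genes, 16 were higher in re-added than in starved cells, 50% of them beside 18.4% of all genes tested, and 4 were lower, 12.5% beside 18.8% of all genes. The median log2 fold change was 0.24 over the 32 genes and -0.06 over all genes tested. Ctps and Nme1 rose most (0.82 each), and Ctps2 (-0.86) and Paics (-0.72) fell most. By branch, 6 purine, 5 pyrimidine and 5 pentose phosphate genes rose, and 1 purine gene and 3 pyrimidine genes fell. With the libraries of like marker sum the median was 0.18 over the 32 genes and 0.00 over all genes tested. The count of lower genes was 2 without starved replicate 2 or 3, or without re-added replicate 1 or 3. Over all genes tested it was, in that order, 3490, 2497, 3628 and 2562, beside 3175 with every library. This comparison shares the starved libraries with the preceding one, so opposite signs between them are not independent.

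With Rap present during re-addition the changes were fewer and mostly downward. Of the 32 genes, 6 were lower with Rap than without it, 18.8% of them beside 3.43% of all genes tested, and 1 was higher, 3.12% beside 4.55% of all genes. The 6 lower genes were Impdh2, Pfas and Gart of purine synthesis, Ctps and Cad of pyrimidine synthesis, and Tkt of the pentose phosphate pathway, and the higher gene was Ctps2. The median log2 fold change was -0.15 over the 32 genes and 0.00 over all genes tested. The count of lower genes depended on single libraries and on the tool. It was 3 without re-added replicate 2 or 3 or any Rap replicate, 10 without control replicate 2, 12 with DESeq2, 13 with limma on log2(TPM + 1) and 14 with only the 6 libraries compared. The lower count over all genes moved too, from 578 of 16844 in the edgeR test. In the same order it was 254 to 280, 896, 1171 of 13903, 1380 of 16946 and 2002. The share of higher among all calls was 57.0% in the edgeR test and 29.1% with limma on log2(TPM + 1). Ctps2 lost its call without re-added replicate 1 or 2 or any Rap replicate.

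**Figure D1:**
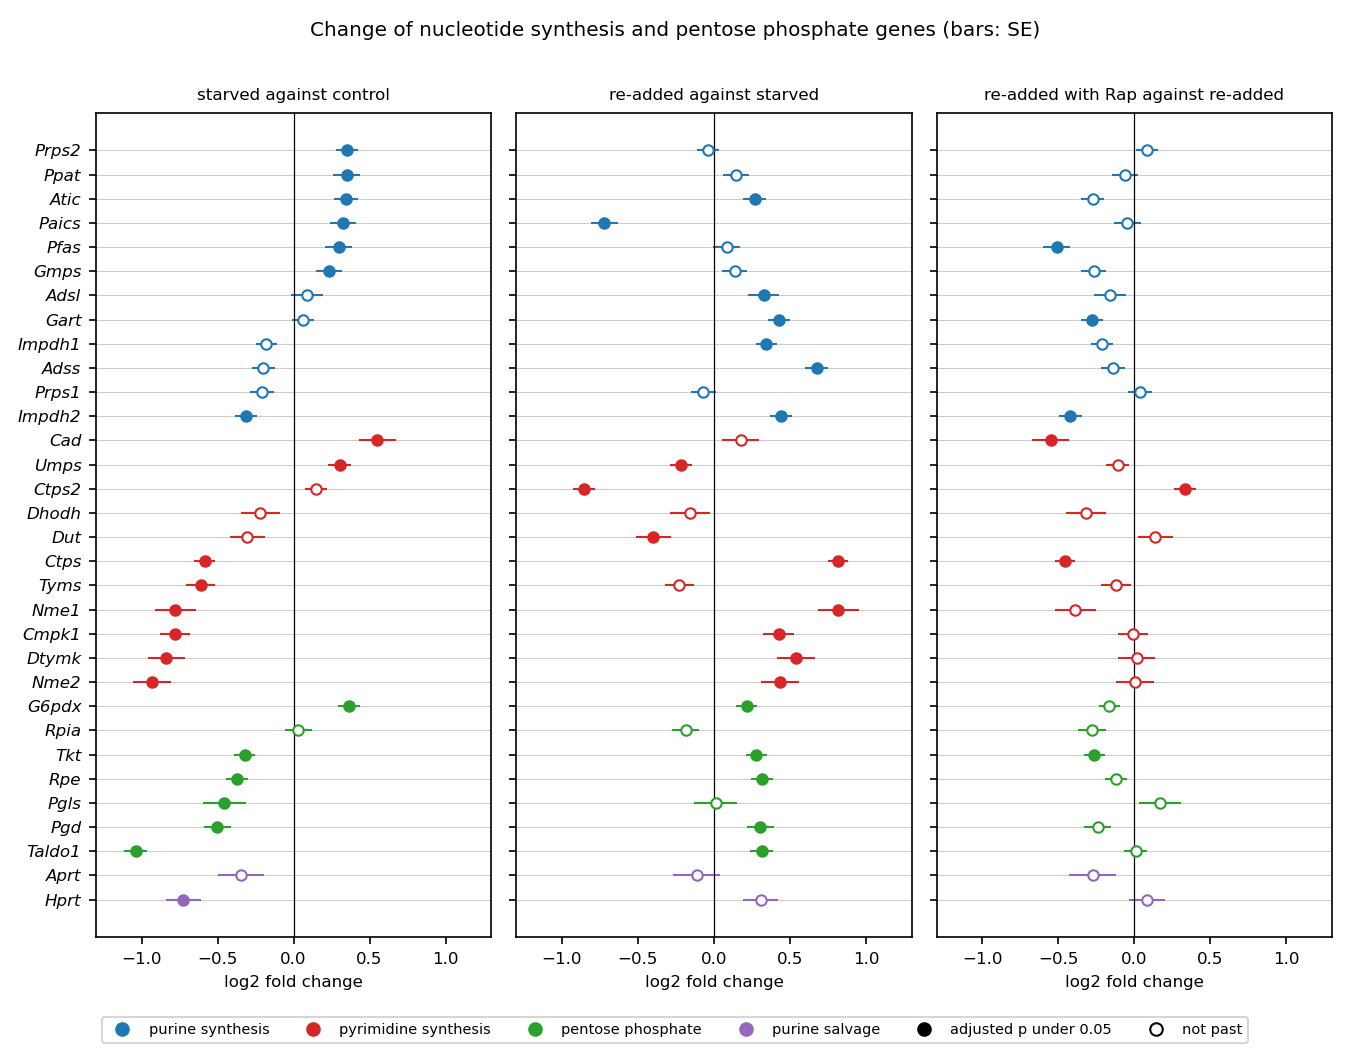
Log2 fold change (x axis) of each of the 32 genes (y axis, grouped by branch and ordered by the first panel) in 3 comparisons, with bars for the SE. Filled points passed an adjusted p of 0.05. Starved against control runs from -1.04 (Taldo1) to 0.55 (Cad), re-added against starved from -0.86 (Ctps2) to 0.82 (Nme1), and Rap against re-added from -0.55 (Cad) to 0.33 (Ctps2).

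Purine synthesis starts with the PRPP synthetases Prps1 and Prps2. Prps2 (chromosome X, 167346322 to 167382749, minus strand, GRCm38.p6) had 93.4, 97.1 and 88.0 CPM in Rap cells, 84.7, 87.5 and 90.8 CPM in re-added cells, 85.6, 97.6 and 87.1 CPM in starved cells, and 72.7, 66.2 and 72.5 CPM in control cells. All 9 libraries of the starved, re-added and Rap groups lay above all 3 control libraries. Prps2 rose in starved cells (log2 fold change 0.35, SE 0.07, adjusted p = 0.0024) and did not pass on re-addition or with Rap (-0.04 and 0.08). The call in starved cells did not hold under every alternative tried. Prps1, the more abundant form per length, averaged 159.7 ± 5.93 CPM in Rap, 156 ± 5.82 CPM in re-added, 164 ± 15.6 CPM in starved and 189 ± 13.8 CPM in control cells (SD, n = 3) and passed in none of the 3 main comparisons.

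The amidotransferase gene Ppat, which encodes the committed step of purine synthesis, and the gene Paics, which encodes a later bifunctional enzyme, overlap at their 5′ ends on opposite strands of chromosome 5. Ppat spans 76913249 to 76951578 on the minus strand and Paics 76951307 to 76967509 on the plus strand. Paics had 193, 188 and 202 CPM in Rap cells, 198, 206 and 198 CPM in re-added cells, 301, 367 and 325 CPM in starved cells, and 295, 249 and 248 CPM in control cells. The starved libraries were the highest, and the re-added and Rap libraries were all below the control libraries. Paics rose in starved cells (log2 fold change 0.33, SE 0.09, adjusted p = 0.0117), a call lost without starved replicate 2, and fell in re-added against starved cells (-0.72, SE 0.09, adjusted p = 6.8e-05). Rap against re-added gave -0.05. Ppat rose alike in starved cells (0.35, SE 0.09, adjusted p = 0.0074), a call that did not hold under every alternative tried. Ppat had 155, 195 and 179 CPM in starved and 148, 128 and 139 CPM in control cells, and did not pass on re-addition. It had 192, 187 and 180.2 CPM in Rap cells and 188, 197 and 199.7 CPM in re-added cells, a log2 fold change of 0.14 (SE 0.09, adjusted p = 0.207) in re-added against starved cells. The ratio of Paics to Ppat on the TPM scale, which divides by exon length, was 1.47 ± 0.10 in Rap, 1.45 ± 0.05 in re-added, 2.65 ± 0.09 in starved and 2.69 ± 0.15 in control cells (SD, n = 3). The 6 libraries with amino acids given back lay between 1.40 and 1.58 and the other 6 between 2.52 and 2.80. As the strand setting of the counting is not given and 6.15% of the exon bases of Ppat and 8.67% of those of Paics overlap the other gene, their reads there cannot be told apart.

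The RefSeq promoter windows of both genes (GRCm38.p6, 250 bases before to 50 after the start) are shown because these neighbours separated on re-addition. Transcription runs from the start at 76951578 for Ppat and from 76951302 for Paics, and the windows do not overlap. Each is written 5′ to 3′ on the gene's own strand, with capitals marking CACGTG (the E-box that MYC and TFEB type factors bind) in Paics and TTTNNCGC or its reverse complement (the core of an E2F site) in Ppat.
Paics, chr5:76951052-76951351, plus strand: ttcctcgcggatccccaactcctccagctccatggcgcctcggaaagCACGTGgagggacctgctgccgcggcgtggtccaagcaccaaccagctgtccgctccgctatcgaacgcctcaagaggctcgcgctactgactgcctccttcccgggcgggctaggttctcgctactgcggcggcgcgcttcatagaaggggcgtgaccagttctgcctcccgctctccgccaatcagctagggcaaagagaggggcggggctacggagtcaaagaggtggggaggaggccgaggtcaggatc
Ppat, chr5:76951529-76951828, minus strand: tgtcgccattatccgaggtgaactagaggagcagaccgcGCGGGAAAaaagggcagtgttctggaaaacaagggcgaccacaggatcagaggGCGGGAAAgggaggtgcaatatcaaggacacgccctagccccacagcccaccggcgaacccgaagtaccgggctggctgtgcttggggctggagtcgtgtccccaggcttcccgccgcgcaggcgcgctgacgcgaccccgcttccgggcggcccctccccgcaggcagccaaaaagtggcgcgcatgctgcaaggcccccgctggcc
The Paics window held CACGTG and no TTTNNCGC, and the Ppat window held 2 matches to TTTNNCGC and no CACGTG. Over the group, 30 of the 32 genes had a window in the table, 37 windows in all. CACGTG, searched on both strands, was in 18.9% of these 37 windows and in 7.15% of all 32851 mouse windows, in Atic, Dtymk, Impdh2, Nme1, Paics and Tyms. TTTNNCGC was in 21.6% of the 37 and in 5.17% of all windows, in G6pdx, Nme1, Pgls, Ppat, Prps1, Prps2 and Tyms. By gene, 6 of the 30 held CACGTG and 7 held TTTNNCGC. Overlapping windows of Nme1 share a TTTNNCGC site that was counted in each. Windows were not matched for base composition. TGATGNAA, the core of the ATF4 composite element, was in 2.7% of the 37, beside 3.97% of all, in Prps1 alone. TCACNCCA, a core of the sterol response element, was in 5.41%, beside 4.36% of all, in Pgd and Tkt. A match describes these letters only and shows no binding.

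Between the Ppat and Paics steps act Gart and Pfas. Gart, a trifunctional enzyme, averaged 101 ± 1.70 CPM in Rap, 122 ± 2.15 CPM in re-added, 90.9 ± 6.39 CPM in starved and 87.1 ± 6.61 CPM in control cells. It rose on re-addition (log2 fold change 0.43, SE 0.07, adjusted p = 0.00062) and fell with Rap (-0.28, SE 0.07, adjusted p = 0.033), a call lost without re-added replicate 2 or 3 or any Rap replicate. Pfas (chromosome 11, 68985697 to 69008460, minus strand), the formylglycinamidine synthase, had 37.6, 34.1 and 38.0 CPM in Rap cells, 50.2, 51.8 and 54.4 CPM in re-added cells, 44.9, 54.9 and 48.0 CPM in starved cells, and 39.8, 37.2 and 43.2 CPM in control cells. The Rap libraries lay below all re-added and starved libraries and overlapped with control. Pfas fell with Rap (-0.51, SE 0.09, adjusted p = 0.0046), a call that held under every alternative tried. Its rise in starved cells was smaller (0.30, SE 0.09, adjusted p = 0.0205) and was lost without control replicate 1 or 2 or starved replicate 2 or 3.

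The last steps to IMP are those of Adsl and Atic. Atic (chromosome 1, 71557150 to 71579631, plus strand), which closes the purine ring, had 80.8, 77.0 and 78.9 CPM in Rap cells, 96.6, 95.4 and 94.3 CPM in re-added cells, 72.6, 87.4 and 77.7 CPM in starved cells, and 59.7, 67.8 and 59.7 CPM in control cells. Re-added libraries were the highest and control libraries the lowest, without overlap with any other group. Atic rose in starved cells (0.34, SE 0.08, adjusted p = 0.0042) and again on re-addition (0.27, SE 0.08, adjusted p = 0.0165). Neither call held under every alternative tried. Rap against re-added gave -0.27 with an adjusted p = 0.05, just short of the threshold. Adsl, the lyase that acts in IMP and in AMP formation, rose on re-addition alone among the 3 main comparisons (0.33, SE 0.10, adjusted p = 0.0286), to 73.2 ± 2.38 CPM in re-added, against 58.5 ± 7.57 CPM in starved cells, and lost the call without re-added replicate 2 or 3.

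From IMP, Adss leads to AMP, and Impdh1, Impdh2 and Gmps lead to GMP. Adss (chromosome 1, 177762962 to 177796511, minus strand) had 81.0, 73.4 and 80.6 CPM in Rap cells, 85.9, 89.0 and 84.1 CPM in re-added cells, 50.5, 58.4 and 53.4 CPM in starved cells, and 66.0, 57.3 and 62.8 CPM in control cells. All libraries with amino acids given back exceeded all starved and control libraries. The rise on re-addition was the largest of the purine branch (0.67, SE 0.08, adjusted p = 3.9e-05), and the change with Rap was -0.14 (SE 0.08, adjusted p = 0.301). Impdh2 (chromosome 9, 108560286 to 108565584, plus strand), the inducible IMP dehydrogenase, had 78.2, 83.2 and 73.9 CPM in Rap cells, 103, 107 and 105 CPM in re-added cells, 71.4, 83.0 and 77.9 CPM in starved cells, and 95.8, 101 and 91.6 CPM in control cells. The Rap libraries overlapped with the starved ones, and the re-added libraries were the highest of all. Impdh2 fell in starved cells (-0.31, SE 0.07, adjusted p = 0.0050), rose on re-addition (0.44, SE 0.07, adjusted p = 0.00058) and fell with Rap (-0.42, SE 0.07, adjusted p = 0.0042), and all 3 calls held under every alternative tried. Its promoter window is shown because of this pattern, with CACGTG in capitals. Ctps and Tkt had the same pattern of calls, and their windows held no CACGTG.
Impdh2, chr9:108560186-108560485, plus strand: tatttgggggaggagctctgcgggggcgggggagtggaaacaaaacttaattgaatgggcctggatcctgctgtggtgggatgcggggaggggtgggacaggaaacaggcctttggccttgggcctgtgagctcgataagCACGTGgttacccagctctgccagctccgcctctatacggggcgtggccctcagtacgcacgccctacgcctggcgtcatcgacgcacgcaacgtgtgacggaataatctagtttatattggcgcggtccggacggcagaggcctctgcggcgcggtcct
Impdh1, the paralog with the higher level per length, rose on re-addition (0.34, SE 0.07, adjusted p = 0.0025) and did not pass in starved cells (-0.18) or with Rap (-0.21, SE 0.07, adjusted p = 0.0934). Its call on re-addition did not hold under every alternative tried. Gmps, the GMP synthetase, averaged 86.9 ± 5.94 CPM in Rap, 105 ± 4.33 CPM in re-added, 95.3 ± 9.91 CPM in starved and 80.9 ± 4.23 CPM in control cells. Its rise in starved cells (0.23, SE 0.08, adjusted p = 0.0441) was lost under 15 of 20 alternatives, among them DESeq2, upper-quartile factors and leaving out control replicate 2 or 3, starved replicate 2 or 3, any re-added replicate or Rap replicate 1.

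**Figure D2:**
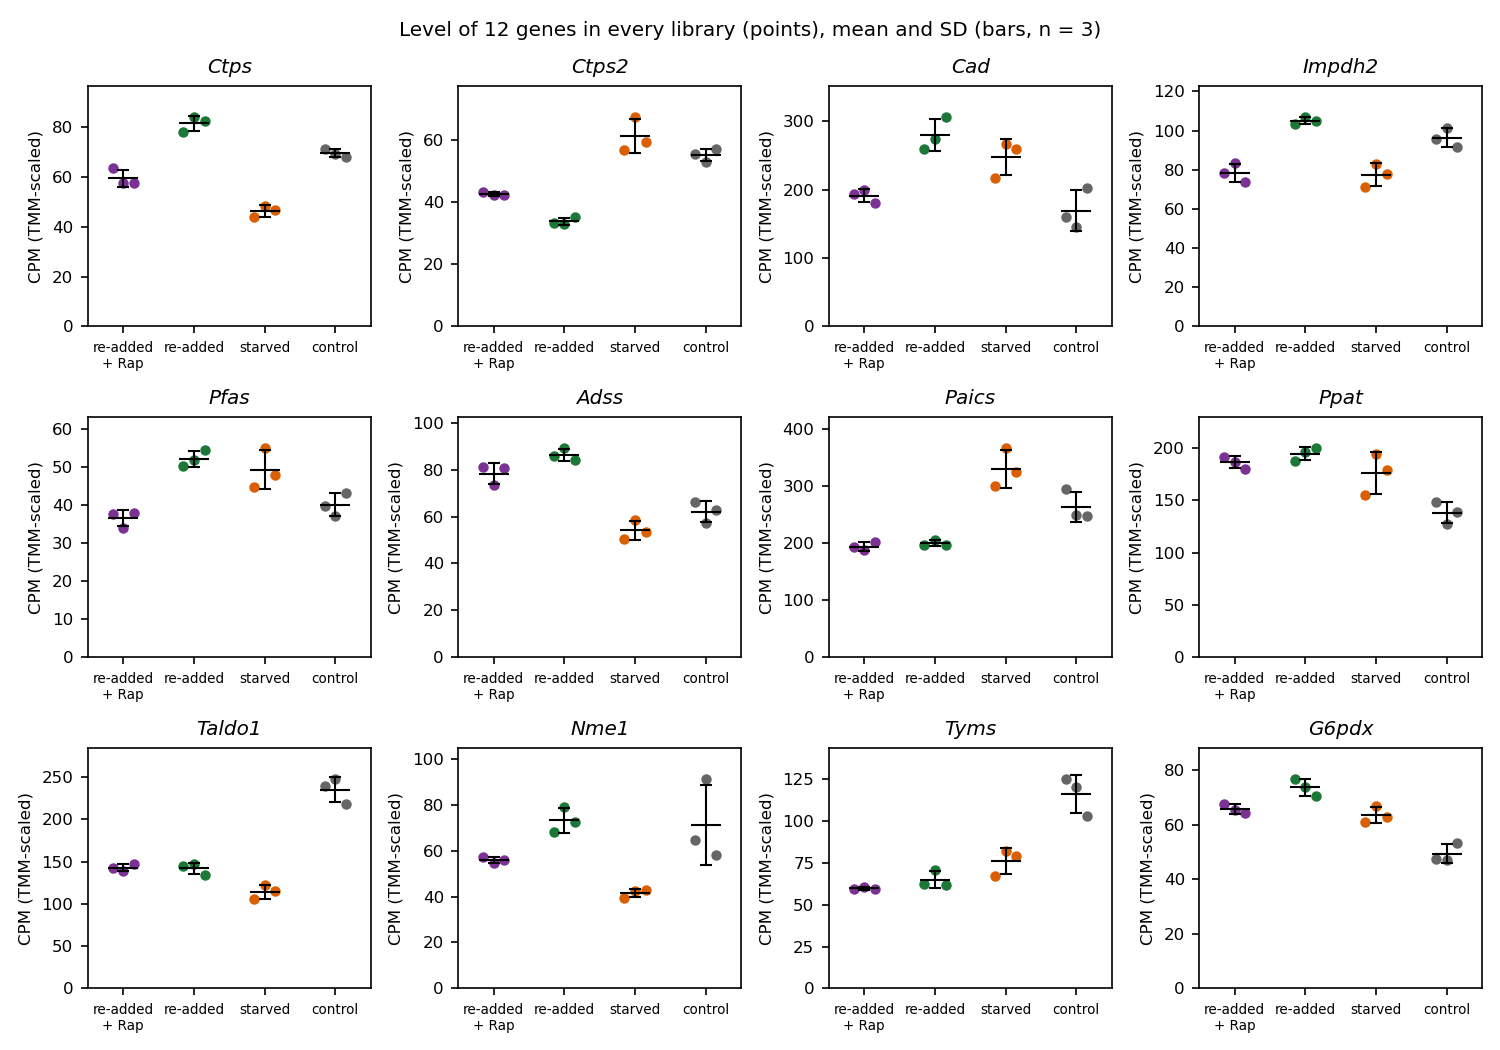
TMM-scaled CPM (y axis, from 0) of 12 genes in every library, with Rap, re-added, starved and control libraries left to right; points are libraries and bars the mean and SD (n = 3). Ctps is highest in re-added cells and lowest in starved cells and Ctps2 lowest in re-added cells. Paics is lower in the Rap and re-added libraries (188 to 206 CPM) than in the starved and control libraries (248 to 367 CPM), and Taldo1 is highest in control cells.

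Pyrimidine synthesis begins with Cad (chromosome 5, 31054780 to 31078479, plus strand), whose protein carries the opening activities of the pathway and is a known target of mTORC1 signalling at the protein level. Cad had 193, 199.7 and 181 CPM in Rap cells, 259.7, 275 and 306 CPM in re-added cells, 217, 267 and 259 CPM in starved cells, and 159.7, 145 and 203 CPM in control cells. The starved and re-added libraries lay above all control libraries, and the Rap libraries lay below all starved and re-added ones. Cad rose in starved cells (log2 fold change 0.55, SE 0.12, adjusted p = 0.0038), did not pass on re-addition (0.18, SE 0.12, adjusted p = 0.266) and fell with Rap (-0.55, SE 0.12, adjusted p = 0.0164). The call in starved cells did not hold under every alternative tried. The call with Rap was lost without re-added replicate 2 or 3 or any Rap replicate, though the change stayed between -0.63 and -0.48 with each library left out in turn. Dhodh, the mitochondrial dihydroorotate dehydrogenase, averaged 19.4 ± 3.24 CPM in Rap, 24.2 ± 1.43 CPM in re-added, 27.1 ± 2.60 CPM in starved and 31.5 ± 3.80 CPM in control cells and passed in none of the main comparisons. Umps (chromosome 16, 33954782 to 33967038, minus strand), which forms UMP, had 97.4, 97.9 and 97.8 CPM in Rap cells, 101, 109 and 106 CPM in re-added cells, 114, 131 and 122 CPM in starved cells, and 103, 89.7 and 105 CPM in control cells. The starved libraries lay above all others. Umps rose in starved cells (0.30, SE 0.07, adjusted p = 0.0071), a call lost without starved replicate 2, and fell on re-addition (-0.22, SE 0.07, adjusted p = 0.039), a call lost under 13 of 20 alternatives, among them leaving out any starved, re-added or Rap replicate.

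The nucleotide kinase genes of the branch fell together in starved cells. Cmpk1 (chromosome 4, 114959336 to 114987241, minus strand), the UMP and CMP kinase, had 139, 138 and 142 CPM in Rap cells, 139.6, 146 and 136 CPM in re-added cells, 98.8, 111 and 104 CPM in starved cells, and 195, 196 and 148 CPM in control cells. The starved libraries were below all others and the control libraries above all others. Cmpk1 fell in starved cells (-0.78, SE 0.10, adjusted p = 0.00012) and rose on re-addition (0.42, SE 0.10, adjusted p = 0.0054), while Rap against re-added gave -0.01. The fall held under every alternative tried and the rise did not. Nme1 (chromosome 11, 93956979 to 93968521, minus strand), a nucleoside diphosphate kinase, had 57.1, 54.7 and 55.9 CPM in Rap cells, 68.2, 78.8 and 72.5 CPM in re-added cells, 39.5, 42.4 and 42.7 CPM in starved cells, and 64.5, 91.1 and 58.0 CPM in control cells. Starved libraries were the lowest, and Rap libraries lay between them and all re-added libraries. Nme1 fell in starved cells (-0.78, SE 0.14, adjusted p = 0.00087) and rose on re-addition (0.82, SE 0.14, adjusted p = 0.00058), and both calls held under every alternative tried. With Rap the change was -0.39 (SE 0.13, adjusted p = 0.107). The Nme1 promoter window is shown because the gene had, with Ctps, the steepest rise on re-addition, with CACGTG and the reverse complement of TTTNNCGC in capitals. The windows of Ctps held neither motif.
Nme1, chr11:93968223-93968522, minus strand: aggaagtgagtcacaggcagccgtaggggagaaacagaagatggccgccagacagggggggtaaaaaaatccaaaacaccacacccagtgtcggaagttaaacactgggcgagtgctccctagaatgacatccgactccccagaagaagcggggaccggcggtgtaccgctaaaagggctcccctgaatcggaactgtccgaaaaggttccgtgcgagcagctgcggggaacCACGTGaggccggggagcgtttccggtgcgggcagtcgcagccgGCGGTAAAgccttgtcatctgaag
Nme2 (chromosome 11, 93949814 to 93956259, minus strand), the neighbouring paralog, had 85.2, 87.7 and 102 CPM in Rap cells, 94.6, 101 and 77.8 CPM in re-added cells, 65.9, 68.0 and 69.0 CPM in starved cells, and 145, 136 and 105 CPM in control cells. Starved libraries were again the lowest, and control libraries the highest. Nme2 fell in starved cells (-0.93, SE 0.13, adjusted p = 0.00017) and rose on re-addition (0.43, SE 0.13, adjusted p = 0.0178), a call lost without re-added replicate 2. The readthrough gene Gm20390 shares 48.9% of the exon bases of Nme2 and 12.5% of those of Nme1 on the same strand, so counts of both genes are uncertain there.

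CTP is made from UTP by the synthetases Ctps and Ctps2, which moved in opposite directions on re-addition. Ctps (chromosome 4, 120539868 to 120570276, minus strand) had 63.4, 57.5 and 57.6 CPM in Rap cells, 78.1, 83.9 and 82.7 CPM in re-added cells, 43.9, 48.5 and 46.7 CPM in starved cells, and 71.2, 69.2 and 68.1 CPM in control cells. None of the 4 groups overlapped with another, and the order was re-added, control, Rap, starved from high to low. Ctps fell in starved cells (-0.59, SE 0.07, adjusted p = 5.3e-05), rose on re-addition (0.82, SE 0.07, adjusted p = 3.4e-06) and fell with Rap (-0.46, SE 0.07, adjusted p = 0.0015), and all 3 calls held under every alternative tried. Ctps2 (chromosome X, 162901238 to 163032508, plus strand) had 43.3, 42.1 and 42.1 CPM in Rap cells, 33.1, 33.0 and 35.1 CPM in re-added cells, 56.7, 67.2 and 59.3 CPM in starved cells, and 55.5, 52.9 and 57.0 CPM in control cells. Here the re-added libraries were the lowest and the Rap libraries the next, below every starved and control library. Ctps2 fell on re-addition (-0.86, SE 0.07, adjusted p = 5.1e-06), was higher with Rap than without it (0.33, SE 0.07, adjusted p = 0.0168) and did not pass in starved cells (0.15). On the TPM scale Ctps was 1.99 ± 0.08 times Ctps2 in Rap, 3.44 ± 0.16 times in re-added, 1.08 ± 0.05 times in starved and 1.80 ± 0.08 times in control cells (SD, n = 3).

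**Figure D3:**
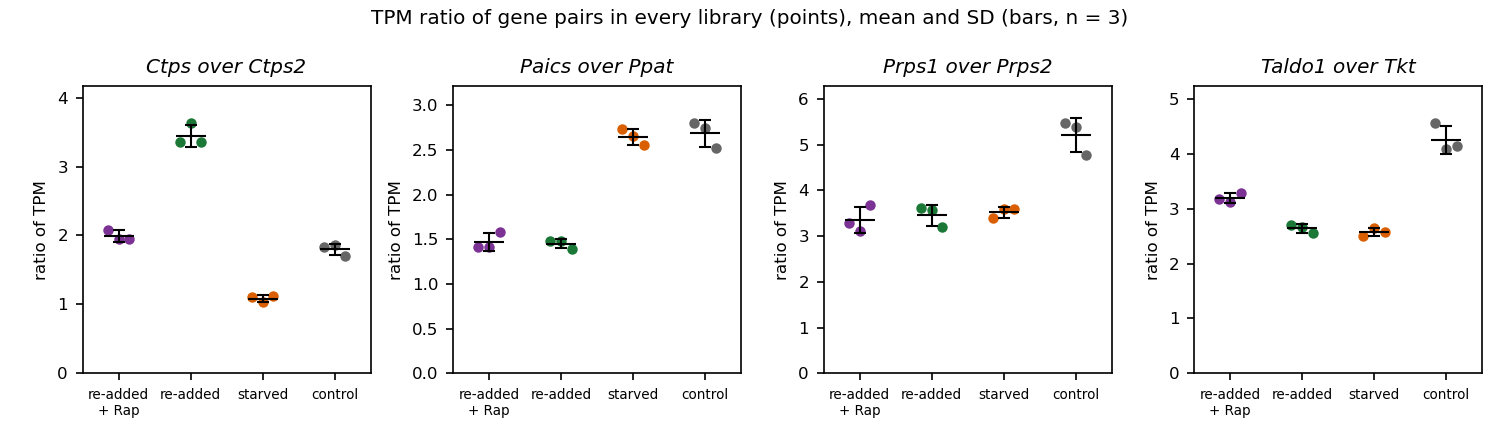
TPM ratio (y axis, from 0) of 4 gene pairs in every library, with Rap, re-added, starved and control libraries left to right; points are libraries and bars the mean and SD (n = 3). Ctps over Ctps2 runs from 1.03 in starved to 3.62 in re-added libraries, Paics over Ppat falls into a low range for both groups given amino acids back and a high range for starved and control cells, and Prps1 over Prps2 and Taldo1 over Tkt are highest in control cells.

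Of the thymidylate genes, Dtymk and Tyms were lower in starved than in control cells as well. Dtymk (chromosome 1, 93792576 to 93801934, minus strand), the thymidylate kinase, had 119, 128 and 137 CPM in Rap cells, 135, 122 and 123 CPM in re-added cells, 79.9, 96.5 and 84.9 CPM in starved cells, and 151, 187 and 129 CPM in control cells. Starved libraries were the lowest, and control replicate 3 was within the Rap and re-added range. Dtymk fell in starved cells (-0.84, SE 0.12, adjusted p = 0.00029) under every alternative tried. Dtymk rose on re-addition (0.54, SE 0.12, adjusted p = 0.0046), a call that did not hold under all of them. Tyms, the thymidylate synthase, did not follow it back. It averaged 59.8 ± 0.815 CPM in Rap, 65.0 ± 5.18 CPM in re-added, 76.2 ± 7.89 CPM in starved and 116 ± 11.6 CPM in control cells, fell in starved cells (-0.61, SE 0.09, adjusted p = 0.00043) and gave -0.23 (SE 0.10, adjusted p = 0.0801) on re-addition. Dut, the dUTPase that keeps uracil out of DNA, averaged 133 ± 6.82 CPM in Rap, 121 ± 5.26 CPM in re-added, 160.0 ± 15.4 CPM in starved and 197 ± 35.0 CPM in control cells. It fell on re-addition (-0.40, SE 0.11, adjusted p = 0.0165), a call lost without starved replicate 2 or 3 or re-added replicate 1 or 3. The 18 listed S and G2/M phase genes split: 4 rose and 9 fell in starved cells, 4 rose and 8 fell on re-addition, and 2 rose and 1 fell with Rap. Among all genes tested, 24.3% rose and 14.6% fell in starved cells, 18.4% and 18.8% on re-addition, and 4.55% and 3.43% with Rap. Mcm2, Mcm4, Mcm6 and Mcm7, of the replicative helicase, rose in starved cells and fell on re-addition. Mcm3 and Mcm5, of the same helicase, did not pass in starved cells and fell on re-addition. The mitotic genes Cdk1, Ccnb1 and Plk1 and the G1/S cyclin gene Ccne1 fell and then rose. Aurkb fell in starved cells and again on re-addition (-0.33), while Ccnb2, Ccna2 and Bub1 fell and then did not pass (0.02, 0.15 and -0.16). The sum of the 18 genes, in which abundant genes weigh most, was 3618 to 3696 CPM in Rap, 3696 to 3744 CPM in re-added, 4575 to 4865 CPM in starved and 4268 to 4841 CPM in control libraries, so that starved and control libraries overlapped and re-added libraries lay below the starved ones. The part of the cell cycle in the levels of Tyms and Dut was not tested.

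In the oxidative arm of the pentose phosphate pathway, G6pdx and Pgd moved in opposite directions in starved cells. G6pdx, the NADPH-forming first enzyme, averaged 65.8 ± 1.73 CPM in Rap, 73.7 ± 3.08 CPM in re-added, 63.5 ± 2.97 CPM in starved and 49.3 ± 3.458 CPM in control cells. It rose in starved cells (0.37, SE 0.07, adjusted p = 0.0015) and rose further on re-addition (0.22, SE 0.07, adjusted p = 0.0285), the second call being lost without re-added replicate 2. The first call did not hold under every alternative tried either. Pgd (chromosome 4, 149149991 to 149166771, minus strand), the second NADPH-forming enzyme, had 50.03, 51.3 and 56.2 CPM in Rap cells, 64.7, 62.3 and 59.2 CPM in re-added cells, 55.4, 45.7 and 49.4 CPM in starved cells, and 69.7, 78.1 and 65.4 CPM in control cells. Starved and Rap libraries overlapped, below all re-added libraries, which were below all control libraries. Pgd fell in starved cells (-0.50, SE 0.09, adjusted p = 0.0011) and rose on re-addition (0.31, SE 0.09, adjusted p = 0.019), a call lost without starved replicate 2 or 3 or re-added replicate 2. The call in starved cells did not hold under every alternative tried either. Pgls, the lactonase between them, averaged 92.8 ± 1.92 CPM in Rap, 82.5 ± 1.21 CPM in re-added, 81.9 ± 12.3 CPM in starved and 112 ± 25.6 CPM in control cells, and its fall in starved cells (-0.46, SE 0.14, adjusted p = 0.0223) was lost without control replicate 2. Pgls shares 20.6% of its exon bases with Fam129c on the same strand. The largest opposite-strand overlaps were those of Rpe (17.9%, Kansl1l), Gart (16.9%, Gm15964) and G6pdx (13.6%, Ikbkg). As the strand setting is not given, their counts are uncertain there.

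The non-oxidative arm held the gene with the largest change of the 32. Taldo1 (chromosome 7, 141392199 to 141402968, plus strand), the transaldolase, had 142, 139 and 148 CPM in Rap cells, 144, 147 and 134 CPM in re-added cells, 106, 122 and 115 CPM in starved cells, and 239.6, 247 and 218 CPM in control cells. Starved libraries were the lowest, Rap and re-added libraries overlapped, and control libraries were far above the rest. Taldo1 fell in starved cells (-1.04, SE 0.08, adjusted p = 2.0e-06) under every alternative tried. It rose on re-addition (0.31, SE 0.07, adjusted p = 0.0062), a call that did not hold under all of them, while Rap against re-added gave 0.01. Tkt (chromosome 14, 30548359 to 30574722, plus strand), the transketolase, had 135, 133 and 135 CPM in Rap cells, 160.4, 167 and 158 CPM in re-added cells, 127, 138 and 134 CPM in starved cells, and 158, 182 and 159 CPM in control cells. Re-added libraries overlapped with control libraries, and Rap libraries overlapped with starved ones. Tkt fell in starved cells (-0.32, SE 0.07, adjusted p = 0.0032), rose on re-addition (0.28, SE 0.07, adjusted p = 0.0074) and fell with Rap (-0.27, SE 0.07, adjusted p = 0.0359), the call with Rap being lost without re-added replicate 2 or 3 or any Rap replicate. The call in starved cells held under every alternative tried and that on re-addition did not. Taldo1 over Tkt on the TPM scale was 3.198 ± 0.087 in Rap, 2.64 ± 0.08 in re-added, 2.58 ± 0.08 in starved and 4.26 ± 0.26 in control cells.

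Rpe and Rpia interconvert the pentose phosphates. Rpe (chromosome 1, 66700831 to 66719805, plus strand), the epimerase, had 44.4, 43.1 and 43.8 CPM in Rap cells, 46.3, 49.9 and 46.9 CPM in re-added cells, 36.7, 41.5 and 36.9 CPM in starved cells, and 49.3, 52.7 and 46.9 CPM in control cells. Starved libraries were the lowest, Rap libraries came next, and re-added and control libraries overlapped. Rpe fell in starved cells (-0.37, SE 0.07, adjusted p = 0.0019) and rose on re-addition (0.31, SE 0.07, adjusted p = 0.0054), and Rap against re-added gave -0.12. The fall in starved cells held under every alternative tried and the rise did not. Rpia (chromosome 6, 70765720 to 70792232, minus strand), the isomerase that yields ribose 5-phosphate and the member of lowest level per length (9.97 TPM over all libraries), had 15.1, 15.7 and 15.9 CPM in Rap cells, 18.8, 20.2 and 17.9 CPM in re-added cells, 21.7, 21.1 and 21.9 CPM in starved cells, and 20.8, 23.5 and 19.0 CPM in control cells. The Rap libraries were below all others. Rpia passed in none of the main comparisons, with -0.28 (SE 0.09, adjusted p = 0.0861) for Rap against re-added. It was lower in Rap than in starved cells (-0.47, SE 0.09, adjusted p = 0.0019), a call that did not hold under every alternative tried.

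Purine salvage was represented by Hprt and Aprt, which join hypoxanthine, guanine or adenine to PRPP. Hprt (chromosome X, 52988137 to 53021659, plus strand), the member of highest level per length (379 TPM over all libraries), had 169, 179 and 191 CPM in Rap cells, 175, 168 and 166 CPM in re-added cells, 129, 152 and 131 CPM in starved cells, and 238, 259 and 182 CPM in control cells. Starved libraries were below all others, and control replicate 3 lay within the Rap range. Hprt fell in starved cells (-0.72, SE 0.12, adjusted p = 0.00052), and re-added against starved gave 0.31 (SE 0.12, adjusted p = 0.0547). Aprt (chromosome 8, 122574635 to 122576909, minus strand) had 42.8, 44.7 and 49.4 CPM in Rap cells, 55.4, 61.3 and 49.1 CPM in re-added cells, 56.1, 59.5 and 63.7 CPM in starved cells, and 70.7, 98.0 and 59.1 CPM in control cells. Neighbouring groups overlapped, with control replicate 2 far above the other control libraries, and Aprt passed in none of the main comparisons (-0.34, -0.11 and -0.28 in turn). Aprt, Impdh2 and Tyms each have a pseudogene named after them in the annotation, so some of their reads could have been counted there. Pseudogenes under other names were not searched for.

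Summed over a branch on the TPM scale, the groups kept different orders. Purine synthesis genes summed to 946 ± 23.3 TPM in Rap, 1104 ± 9.32 TPM in re-added, 1122 ± 28.2 TPM in starved and 993 ± 101 TPM in control cells (SD, n = 3), so that the Rap sum lay below the re-added and starved sums. Pyrimidine genes summed to 878 ± 9.94, 997 ± 20.7, 894 ± 3.03 and 1141 ± 77.1 TPM in Rap, re-added, starved and control cells, in that order. Pentose phosphate genes summed to 418 ± 8.45, 469 ± 9.96, 404 ± 8.48 and 558 ± 3.92 TPM in the same order of groups. The salvage genes summed to 444 ± 15.4, 472 ± 13.9, 415 ± 10.4 and 588 ± 76.4 TPM. Control cells had the highest sum in these 3 branches, and the re-added sum exceeded both the Rap and the starved sums. Abundant members weigh most in such sums, and TPM carries no scaling between libraries.

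**Figure D4:**
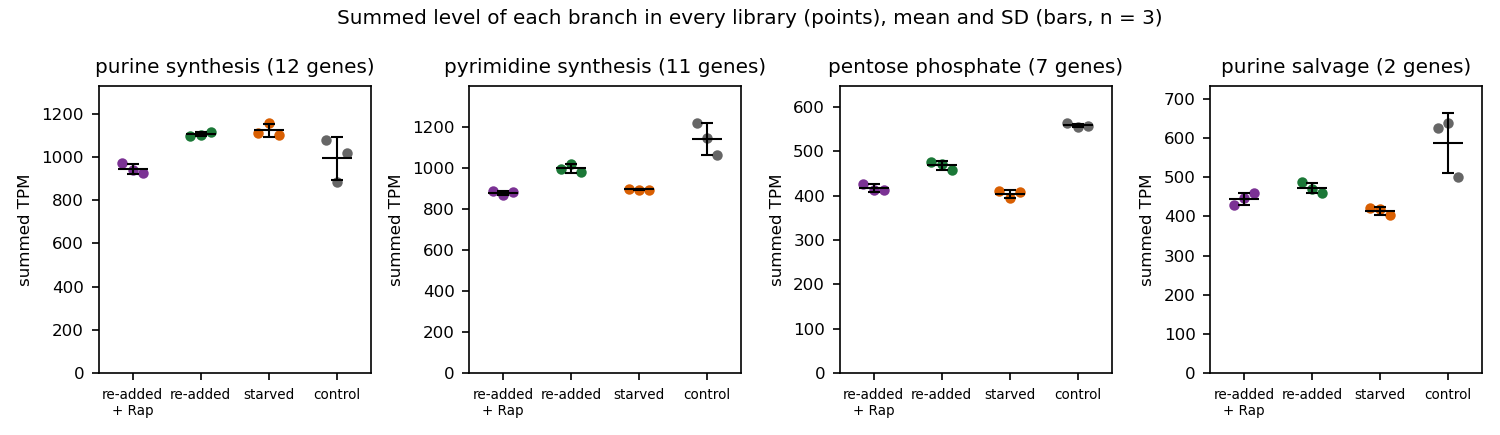
Summed TPM (y axis, from 0) of the genes of each branch in every library, with Rap, re-added, starved and control libraries left to right; points are libraries and bars the mean and SD (n = 3). Pentose phosphate and pyrimidine sums are highest in control cells, at 558 ± 3.92 and 1141 ± 77.1 TPM, and the mean purine sum is lowest in Rap cells at 946 ± 23.3 TPM, where Rap libraries lie below all re-added and starved ones but control replicate 2 (882 TPM) is lower.

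Rap cells were also set against starved cells. Of the 32 genes, 8 were higher in Rap than in starved cells and 8 lower, 25.0% of them each way beside 20.2% and 23.9% of all genes tested. The 8 higher genes were Adss, Cmpk1, Ctps, Dtymk, Nme1, Nme2, Taldo1 and Hprt, and the 8 lower were Paics, Pfas, Cad, Ctps2, Dhodh, Tyms, Umps and Rpia. Paics (-0.77, SE 0.09, adjusted p = 6.0e-05) and Adss (0.53, SE 0.08, adjusted p = 0.00028) gave -0.72 and 0.67 in re-added against starved cells. For Impdh2 the value was 0.02, for Tkt 0.01 and for Pgd 0.06, none of which passed, against 0.44, 0.28 and 0.31 in re-added against starved cells. Both comparisons use the same starved libraries. The count of higher genes was 5 without Rap replicate 3, beside 2515 of all genes tested (3399 with every library). With the libraries of like marker sum the median log2 fold change was -0.01 over the 32 genes, against 0.05 with every library. Over all genes tested it was 0.01, against -0.03.

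Levels after 3 h of re-addition were set against those of control cells. Of the 32 genes, 11 were higher in re-added than in control cells, 34.4% of them beside 24.8% of all genes tested, and 12 were lower, 37.5% beside 24.5% of all genes. Among the higher were 8 purine genes, including Atic (0.61, SE 0.08, adjusted p = 0.00013) and Gart (0.49, SE 0.07, adjusted p = 0.00035), and Cad (0.73, SE 0.12, adjusted p = 0.00079) and G6pdx (0.58, SE 0.07, adjusted p = 9.3e-05). Among the lower were Tyms (-0.84, SE 0.10, adjusted p = 6.3e-05), Taldo1 (-0.73, SE 0.07, adjusted p = 3.3e-05), Ctps2 (-0.71, SE 0.07, adjusted p = 3.7e-05) and Dut (-0.70, SE 0.11, adjusted p = 0.00067). The count of lower genes was 7 without re-added replicate 3, beside 2176 of all genes tested (4132 with every library). The other-cell marker sum differed between these groups in all libraries (129 to 818 CPM in re-added, 2031 to 2423 CPM in control cells), and with it as a covariate 4 genes were higher. Over all genes tested, 1415 were higher with the covariate and 4172 without it.

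The falls in starved cells were as large or larger in the libraries of like marker sum, except that of Pgd (-0.35 against -0.50 with all libraries). There Taldo1 gave -1.14, Nme2 -0.96, Dtymk -0.95 and Ctps -0.66 on the log2 scale, against -1.04, -0.93, -0.84 and -0.59 with all libraries. The rises were smaller, with Cad at 0.37 against 0.55, Ppat at 0.18 against 0.35 and G6pdx at 0.31 against 0.37. For re-addition Ctps gave 0.84 against 0.82, Adss 0.63 against 0.67, Paics -0.80 against -0.72 and Ctps2 -0.92 against -0.86, and all 4 passed in the like libraries too.

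**Figure D5:**
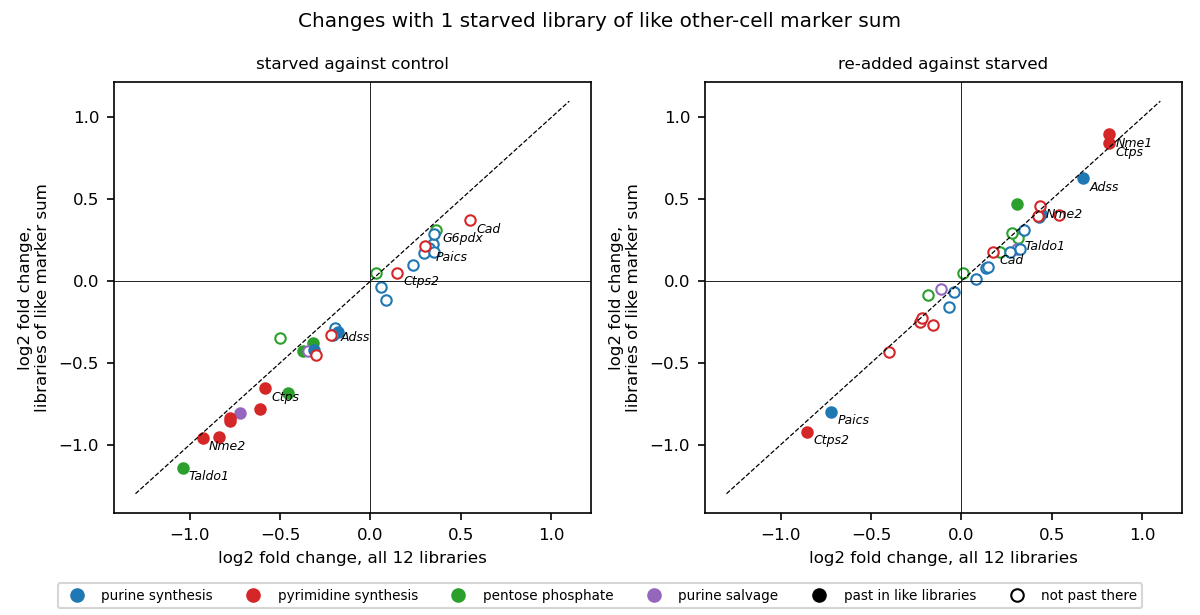
Log2 fold change of the 32 genes in libraries of like other-cell marker sum (y axis) against that with all 12 libraries (x axis), for starved against control and re-added against starved; each point is a gene, coloured by branch, filled where it passed in the like libraries, and the dashed line marks equal values. In starved against control the lower genes lie below the line (Taldo1 at -1.14) except Pgd, and the higher genes lie below it, unfilled (Cad at 0.37).

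Other genes of nucleotide metabolism were taken from lists written with earlier results of these data known. In starved against control cells, 4 of 29 tested genes of nucleoside and base salvage and breakdown rose and 10 fell, 2 of 11 deoxynucleotide supply genes rose and 6 fell, and 5 of 11 folate one-carbon genes rose and 2 fell, beside 24.3% of all genes tested that rose and 14.6% that fell. On re-addition the folate genes showed 2 higher and 6 lower, beside 18.4% and 18.8% of all genes, and with Rap 1 higher and 5 lower, beside 4.55% and 3.43%. In starved cells the salvage and deoxynucleotide lists thus held a larger share of lower genes than all genes did. The salvage list also held a smaller share of higher genes there. The deoxynucleotide share higher in starved cells and the folate share higher on re-addition were near those of all genes. Shmt2, the mitochondrial serine hydroxymethyltransferase that feeds formate to purine synthesis, averaged 87.2 ± 2.52 CPM in Rap, 142 ± 4.198 CPM in re-added, 224 ± 15.7 CPM in starved and 102 ± 6.59 CPM in control cells. It rose in starved cells (1.14, adjusted p = 7.7e-07), fell on re-addition (-0.66, adjusted p = 2.8e-05) and was lower still with Rap (-0.71, adjusted p = 0.00015). Shmt1, its cytosolic counterpart, gave 0.60 in starved cells and -1.19 on re-addition, both past the test.

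Among the listed relatives single genes changed more than any of the 32. Ak4, a mitochondrial adenylate kinase, averaged 8.47 ± 0.923 CPM in Rap, 13.2 ± 0.354 CPM in re-added, 1.47 ± 0.217 CPM in starved and 45.2 ± 5.49 CPM in control cells. It fell in starved cells (-4.93, adjusted p = 1.6e-09) and rose on re-addition (3.15, adjusted p = 5.0e-08), while 2 of the 13 kinase genes rose and 4 fell in starved cells. H6pd, the oxidative pentose phosphate enzyme of the endoplasmic reticulum, averaged 88.4 ± 4.45 CPM in Rap, 80.9 ± 0.757 CPM in re-added, 171 ± 11.8 CPM in starved and 66.6 ± 9.18 CPM in control cells. It rose in starved cells (1.36, adjusted p = 1.5e-06) and fell on re-addition (-1.08, adjusted p = 4.9e-06), whereas Pgm2, a phosphoglucomutase gene, fell (-1.02, adjusted p = 3.4e-06) and rose (0.45, adjusted p = 0.00088). Prpsap1, which encodes a protein bound to PRPP synthetases, fell on re-addition (-1.03, adjusted p = 8.3e-06), and 2 of the 9 tested pentose phosphate and PRPP relatives rose and 3 fell in starved cells. Nt5c2, a nucleotidase of IMP and GMP, rose in starved cells (0.83, adjusted p = 1.8e-05) and fell on re-addition (-1.50, adjusted p = 1.7e-07). Slc25a36, a mitochondrial pyrimidine nucleotide carrier, moved the same way (0.87, adjusted p = 7.0e-05, and -1.25, adjusted p = 4.2e-06), while 3 of 7 tested carrier genes rose in starved cells and the other 4 did not pass. Rrm2, the small subunit of ribonucleotide reductase, fell in starved cells (-0.34, adjusted p = 0.0011) and rose on re-addition (0.46, adjusted p = 0.00013), where 2 of the 11 deoxynucleotide supply genes were higher and 4 lower. Among the lower were Rrm1, which encodes the large subunit (-0.40, adjusted p = 0.00099), and Tk1, the cytosolic thymidine kinase (-0.62). Across all genes tested, 24.3% rose and 14.6% fell in starved cells, and 18.4% rose and 18.8% fell on re-addition.

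Of 16 listed factors known to act on such genes, 6 rose and 4 fell in starved cells, 2 rose and 9 fell on re-addition, and 5 rose and 2 fell with Rap. Of all genes tested, 24.3% rose and 14.6% fell in starved cells, 18.4% and 18.8% on re-addition, and 4.55% and 3.43% with Rap. Mnt, Mxi1, Mxd4 and Mxd1 encode MAX partners that repress at the E-box, and Myc and Mycn encode MAX partners that activate there. Mnt averaged 48.6 ± 0.757 CPM in Rap, 16.3 ± 0.380 CPM in re-added, 75.6 ± 6.89 CPM in starved and 37.2 ± 4.80 CPM in control cells. It rose in starved cells (1.02, adjusted p = 1.3e-05), fell on re-addition (-2.21, adjusted p = 5.0e-08) and was higher with Rap than without it (1.57, adjusted p = 3.9e-06). Mxi1 gave 0.29, -1.43 and 0.92 in the same 3 comparisons, all past the test, and Mxd4 gave 0.17, -1.32 and 1.41, of which the value in starved cells did not pass. Mxd1 fell in starved cells (-0.40, adjusted p = 0.0193) and gave -0.42 on re-addition and 0.56 with Rap, both past the test. These 4 repressor genes were thus all lower on re-addition and higher with Rap, but not all higher in starved cells. Myc gave 0.75, -0.89 and -0.05 in the same 3 comparisons, of which the value with Rap did not pass, and Mycn gave 0.70, -0.92 and 0.49, all past the test. Nfe2l2, which encodes NRF2, an activator of pentose phosphate genes, rose in starved cells (0.45, adjusted p = 0.00069) and fell on re-addition (-0.75, adjusted p = 1.7e-05). The 2 factor genes that fell with Rap were Atf4 and Srebf1. In the 3 comparisons Atf4 gave 0.77, -0.50 and -0.66 and Srebf1 gave -0.77, 0.66 and -0.62, all past the test. E2f1 gave -0.03, -0.90 and 0.12, of which the value on re-addition alone passed. Transcript levels of a factor do not show its activity.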

How the data were processed

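RNA of 12 MIN6 libraries was analysed. The authors deposited whole-number read counts per gene, 1 table per library, and a TPM table that equals counts per exon length scaled to a fixed sum per library, within 5.0e-05, as checked on the files. Per the file headers, rows are Ensembl genes with exon coordinates, strand and length. Per the submitters' processing notes, Subread 2.0.1, limma 3.46.0 and GRCm38.p6 were used, with no role stated. No aligner, strand setting or annotation release is given in the sources used here. TPM columns were assigned through the count files' headers, and 0 were left unassigned.

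The count test was that of edgeR 4.0.16 under R 4.3.3 (filterByExpr with minimum count 10, TMM, 1 quasi-likelihood fit of 4 group means over 12 libraries, 8 residual degrees of freedom), with Benjamini-Hochberg adjustment over 16844 genes. These genes held 99.92% of the counts. CPM values use TMM-scaled totals, except those of marker lists, which use raw totals. SDs are over 3 libraries, whose spread, not counting error, sets the precision. No 2 libraries of the same group agreed within sampling noise. The routine was tested on simulated counts.

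Alternatives were DESeq2 1.42.0, upper-quartile factors, no filter on low counts, limma 3.58.1 on log2(TPM + 1), a replicate block, the other-cell marker sum as a covariate, only the 6 libraries compared, libraries of like marker sum, and leaving out each library. Values in every library are given for the 2 genes of each branch with the smallest adjusted p in each main comparison and for those that passed in opposite directions in starved and re-added cells. The 3 main comparisons set starved against control, then re-added against starved, then Rap against re-added cells. The genes, lists and rules were chosen with earlier results of these data known.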

Additional observations from a re-analysis of the deposited data

How the results depend on the processing

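No direction turned under any alternative for a gene that passed the test. Under every alternative held 11 of 22 calls in starved against control, 7 of 20 in re-added against starved, 3 of 7 in Rap against re-added, 7 of 16 in Rap against starved and 10 of 23 in re-added against control. With the marker sum as a covariate, 4 genes were higher in starved than in control cells (9 in the edgeR test), 5 higher in Rap than in starved cells (8) and 4 higher in re-added than in control cells (11). Over all genes tested these counts were 3011 (4101), 2291 (3399) and 1415 (4172). With only the 6 libraries compared, 4 were higher in starved than in control cells, and 2 were higher and 14 lower with Rap than without it (1 and 6). Over all genes tested these counts were 2389 (4101), and 1782 and 2002 (766 and 578). With libraries of like marker sum, 0 were higher in starved than in control cells, 6 were higher and 2 lower in re-added than in starved cells (16 and 4), 0 were higher with Rap than without it and 2 were higher in Rap than in starved cells. A lone starved library leaves fewer samples, so a lost call there is not a smaller change by itself. DESeq2 gave 12 genes lower with Rap than without it, and limma on log2(TPM + 1) gave 13 lower and 0 higher. Over all genes tested, DESeq2 gave 1171 lower, and limma on log2(TPM + 1) 1380 lower and 566 higher. Leaving out 1 library at a time gave 5 to 9 genes higher in starved than in control cells, 2 to 5 lower in re-added than in starved cells, 0 to 1 higher and 3 to 10 lower with Rap than without it, 5 to 10 higher in Rap than in starved cells and 7 to 14 lower in re-added than in control cells. Over all genes tested the counts were, in that order, 2813 to 4173, 2358 to 3628, 397 to 1179 and 254 to 896, 2515 to 3929, and 2176 to 4641. The causes of these shifts were not tested. Limma on log2(TPM + 1) moved the median of all genes to 0.12 in starved against control, to -0.12 in Rap against starved and to 0.12 in re-added against control, beside 0.01, -0.03 and 0.02.

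The labels do not say that replicate numbers pair libraries. Deviations from the group means of libraries with the same number correlated at -0.33 to 0.81 over 18 pairs, and those of different numbers at -0.83 to 0.63 over 36 pairs. The highest values joined starved with re-added replicate 1 (0.81) and starved with re-added replicate 2 (0.67). Other-cell marker sums were 1990 and 818 CPM in the first pair and 139 and 133 CPM in the second. These correlations therefore cannot decide whether replicate numbers pair libraries. With the replicate block, 8 genes were higher and 13 lower in starved than in control cells, 15 higher and 3 lower in re-added than in starved cells, and 1 higher and 5 lower with Rap than without it. Over all genes tested these counts were, in that order, 3919 and 2593, 2943 and 3027, and 621 and 446.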
